A study of Mus musculus with 6 samples.

Results

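The subject is the set of nuclear genes that encode the mitochondrial respiratory chain and ATP synthase, measured in bone marrow 6 h after erythropoietin. Genes were taken by symbol: protein-coding RefSeq symbols beginning Ndufa, Ndufb, Ndufc, Ndufs or Ndufv, the symbols Sdha to Sdhd, and those beginning Uqcr, Cox4 to Cox8 or Atp5. The rule used no measured value and gave 96 symbols. Of these 91 had a matched probe on the array and 87 were tested, among 14853 genes tested in all. The 87 comprised 37 subunits of complex I, 4 of complex II, 8 of complex III, 14 of complex IV and 17 of complex V, the ATP synthase. The rule also took in 7 tested Ndufaf genes, which encode factors that assemble complex I and are not part of it, and they are described apart. Ndufa4, now counted with complex IV, is kept under complex I by its symbol in all counts and medians.

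Complex I takes electrons from NADH and complex II from succinate, and both hand them to coenzyme Q. Complex III passes them to cytochrome c and complex IV to oxygen, while complexes I, III and IV pump protons whose return drives ATP synthase. Red cell precursors rely on mitochondria for ATP and for heme synthesis, and they discard the organelle when they mature. Each complex other than II also holds subunits encoded by mitochondrial DNA, which were not analysed here.

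RNA of ISAM mouse marrow, taken from the femur, was hybridised to 6 Agilent arrays in 1 colour, 1 array per sample. The 3 rHuEPO samples came 6 h after recombinant human erythropoietin (rHuEPO), 3000 U/kg into the peritoneal cavity, the 2 PBS samples 6 h after phosphate-buffered saline (PBS), and the 1 remaining sample was untreated. Following the study's design, PBS and untreated samples formed 1 control arm. All animals, controls included, were male, 10 weeks old, of mixed strain and of the ISAM genotype, which has no endogenous Epo gene and carries an Epo transgene labelled 3.3K-Epo3'-Tg458, so nothing here compares ISAM with wild type. Since the labels give replicate numbers but name no animals, the p-values speak of sample-to-sample spread alone, which may be technical, and the number of arrays limits every value. Erythroid, neutrophil and other marrow markers were measured on these arrays, and all 6 skeletal muscle markers looked for were too dim to test.

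Values below are log2 signals, scaled to the array's 75th percentile, so that 0 is that percentile. Each probe is compared with itself across arrays, never with another probe. Differences are rHuEPO minus control on the log2 scale with the standard error (SE) from limma, 3 against 3 arrays, two-sided, with Benjamini-Hochberg adjustment over all genes tested. The arrays lay on 2 slides, and slide and scan fell together. Slide 1 held rHuEPO 1 and the untreated array, and slide 2 held rHuEPO 2, rHuEPO 3, PBS 1 and PBS 2. Within slide 1 the control is the untreated sample, so an effect of the PBS injection and one of slide cannot be told apart in the control arm. In bulk marrow, fewer cells of a type and less RNA per cell cannot be told apart either.

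At an adjusted p under 0.05, 0 of the 87 genes were called by limma in either direction, where 0.0673% of all genes were called. At an unadjusted p under 0.05 there were 2, the assembly factor Ndufaf4 and the complex IV subunit Cox6b2, where 4.96% of all genes were listed. With slide as a block limma still called 0 of the 87 (0.0741% of all genes). That fit listed 7 as higher (5.62% of all genes) and 1 as lower (5.69%) at an unadjusted p under 0.05. The 95% confidence interval of the difference lay within 2-fold either way for 74 of the 87 genes, and for 82 with slide as a block. The counts were 11287 and 12702 of all 14853 genes tested. Of the 887 genes at least as bright as the median of the 87, they were 830 and 862.

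The estimates leaned to one side. The difference was above 0 for 82 of 87 genes, against 47.3% of all genes tested, with a median of 0.11 against -0.01 for all genes. Among the 887 genes at least as bright as the median member, a comparison chosen after the values were seen, 62.2% were above 0, with a median of 0.03. The 887 bright genes include the brighter of the 87 genes themselves. By complex the medians were 0.11 for complex I, 0.09 for complex II, 0.09 for complex III, 0.10 for complex IV, 0.09 for complex V and 0.31 for the assembly factors. These genes moved together from array to array and are not independent, so the count is a description. The lean turned with the choice of arrays: against the PBS arrays alone 22 of 87 genes were above 0, with a median of -0.07 and 0 called (0.0202% of all genes), and without rHuEPO 3 the count was 41, with a median of -0.0019. Against the PBS arrays 40.1% of all genes were above 0, and 24.5% of the bright genes, with a median of -0.09. Both PBS arrays lay on slide 2 and rHuEPO 1 on slide 1, so that contrast is not balanced by slide. Within slide 2 alone 60 of 87 genes were above 0 (46.9% of all genes, 51.4% of the bright genes), with a median of 0.06. With normexp background correction the median was 0.55 for the 87 genes and 0.07 for all genes, and 0.51 for the bright genes.

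**Figure D1:**
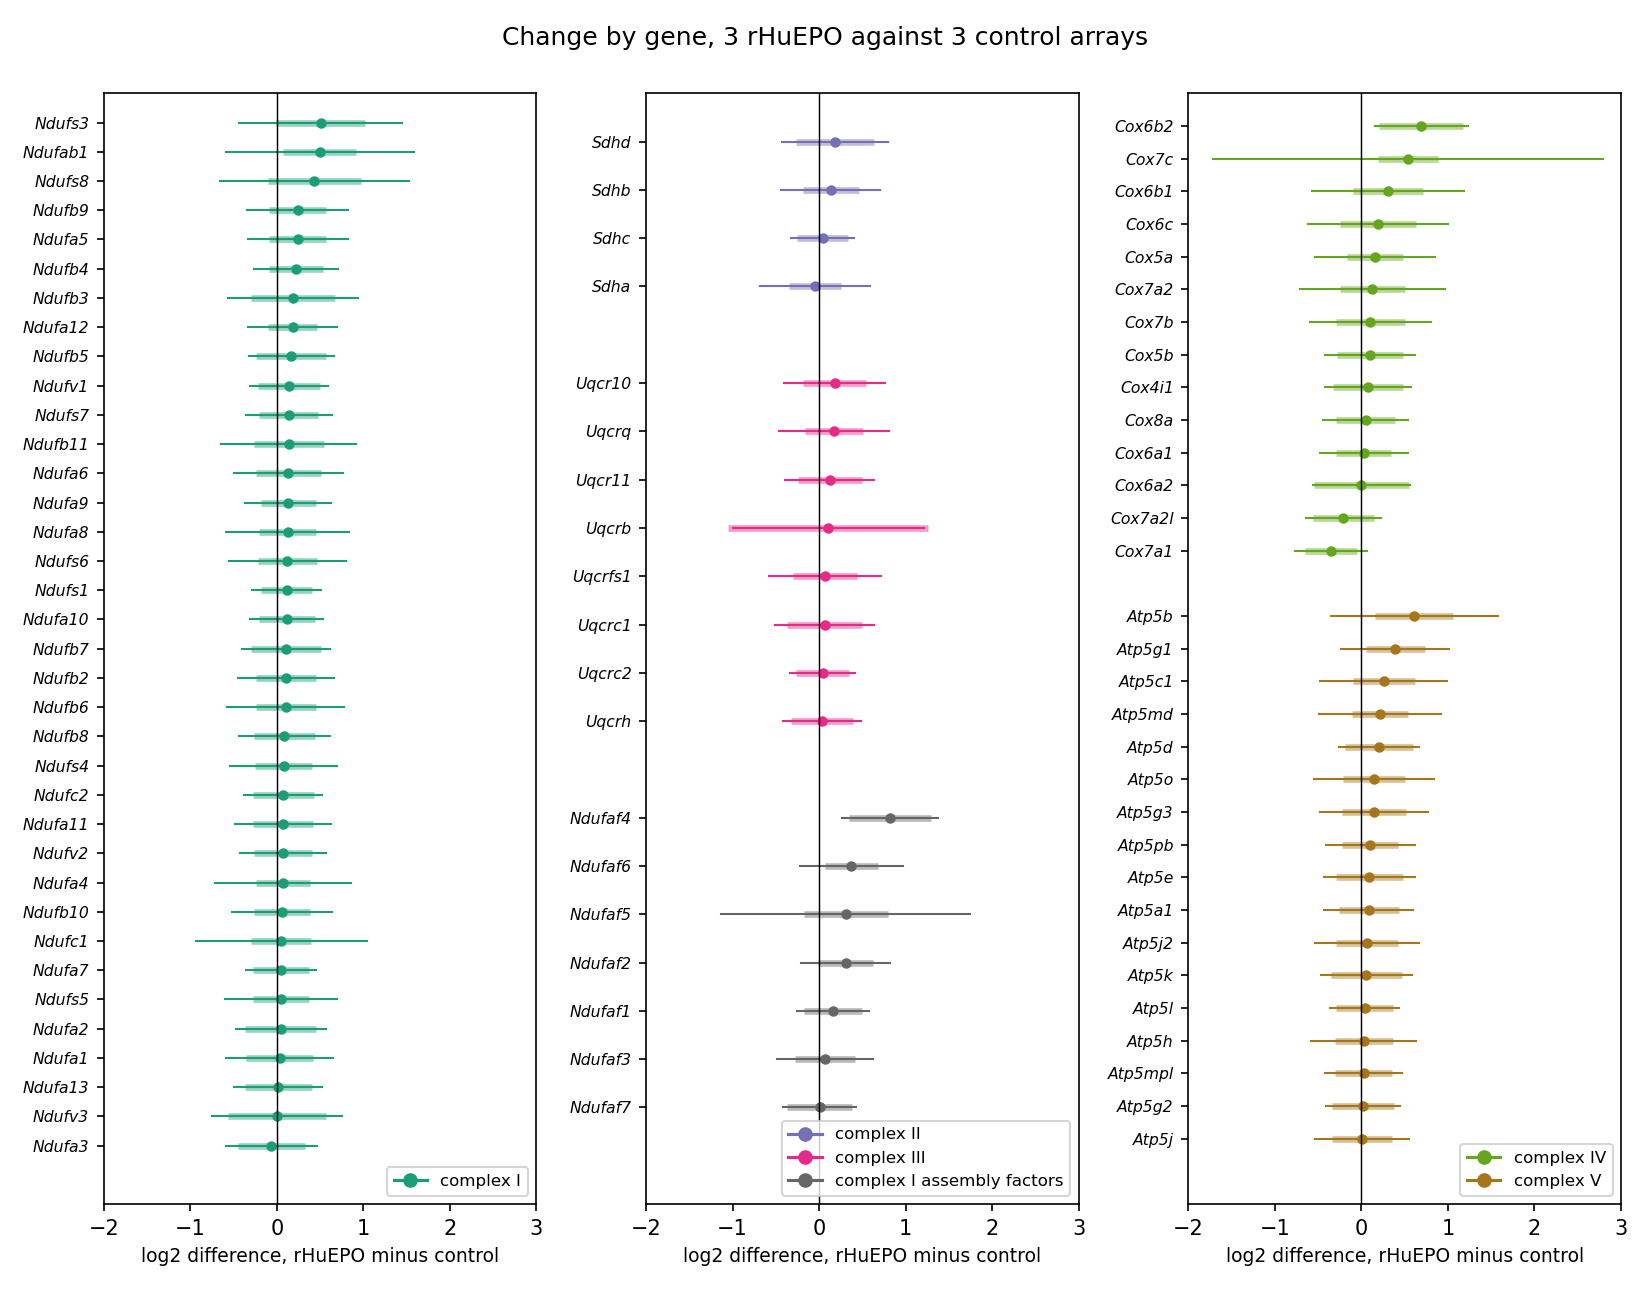
Log2 difference, rHuEPO minus control, for the tested genes by complex, without 1 gene that is not reported here. Points are estimates from 3 rHuEPO against 3 control arrays, thin lines their 95% confidence intervals and thick bars the intervals with slide as a block; most points lie slightly above 0, and no gene passed at an adjusted p under 0.05.

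Complex I, the NADH dehydrogenase, had 37 tested subunits, of which 36 were above 0, and none was called. Ndufv1 binds NADH and the flavin that takes its electrons. Ndufv1 had log2 signals of 5.005, 5.05 and 5.34 on the rHuEPO arrays, against 5.22 and 4.96 on the PBS arrays and 4.79 on the untreated array. Its difference was 0.14 ± 0.19 (limma adjusted p = 1.00), and the arms overlapped. Ndufv2 and Ndufs1 carry iron-sulfur clusters along the electron path, and their differences were 0.07 ± 0.21 and 0.11 ± 0.17. Ndufs7, which lies near the coenzyme Q site, differed by 0.14 ± 0.21.

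Ndufs3 and Ndufs8, core subunits of the arm that leads electrons to coenzyme Q, had larger estimates. Ndufs3 had log2 signals of 3.53, 3.95 and 4.20 on the rHuEPO arrays, against 3.92 and 3.77 on the PBS arrays and 2.46 on the untreated array. The untreated array stood far below the other 5, and rHuEPO 1 was the next lowest. The difference was 0.51 ± 0.40 (limma adjusted p = 1.00), and it was 0.05 against the PBS arrays alone. The latter contrast is not balanced by slide, since both PBS arrays lay on slide 2 and rHuEPO 1 on slide 1. Within slide 2 the Ndufs3 difference was 0.23. Ndufs8 had log2 signals of 0.44, 0.99 and 1.32 on the rHuEPO arrays, against 0.97 and 1.05 on the PBS arrays and -0.58 on the untreated array. Again the untreated array lay apart, and the difference of 0.43 ± 0.46 became -0.10 against the PBS arrays. Within slide 2 the Ndufs8 difference was 0.14. Ndufab1, the mitochondrial acyl carrier protein, had 2.14, 3.19 and 3.70 on the rHuEPO arrays, against 2.81 and 2.96 on the PBS arrays and 1.77 on the untreated array. Its difference was 0.50 ± 0.46, and 0.50 ± 0.17 with slide as a block (limma adjusted p = 0.386).

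Ndufb4, an accessory subunit, differed by 0.22 ± 0.21. Ndufa3, another accessory subunit, was the only tested complex I gene below 0 in the fit of all 6 arrays, at -0.06 ± 0.23. Ndufa4 is the gene with a complex I name that now belongs to complex IV. Ndufa4 had log2 signals of 5.02, 5.77 and 5.98 on the rHuEPO arrays, against 5.85 and 5.74 on the PBS arrays and 4.97 on the untreated array. The low arrays were rHuEPO 1 and the untreated one, which shared slide 1, and the difference was 0.07 ± 0.34. Its paralog Ndufa4l2 had no matched probe, like Ndufb1, Ndufb4b, Ndufb4c and the assembly factor Ndufaf8.

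Of the 7 complex I assembly factors all were above 0 and none was called. Ndufaf4, which acts on an early part of the complex, had the smallest p of the 87 genes. Ndufaf4 had log2 signals of 1.78, 2.24 and 2.34 on the rHuEPO arrays, against 1.05 and 1.62 on the PBS arrays and 1.22 on the untreated array. Every rHuEPO array was above every control array. The difference was 0.82 ± 0.24, a 1.76-fold ratio, with an unadjusted p of 0.00963 by limma that did not pass adjustment (adjusted p = 0.740, and 0.289 with slide as a block). It was 0.56 within slide 1 and 0.95 within slide 2, and a second tested probe of the gene gave 0.75. Ndufaf6 and Ndufaf2, which act at other steps of assembly, differed by 0.37 ± 0.25 and 0.31 ± 0.22, and their arms overlapped. Over the 87 genes, the arms were fully separated upward in 2, Ndufaf4 and Cox6b2, as in 5.01% of all genes, and downward in 1, Cox7a1, as in 5.39%.

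The promoter of Ndufaf4 is shown because this gene had the smallest p. The window runs from 250 bases before to 50 bases after the RefSeq start, on GRCm38.p6 at chr4:24897833-24898132, plus strand, read 5′ to 3′. Capitals mark the NRF1 motif, the one kind of motif found in this window among the 6 searched (described below).
Ndufaf4: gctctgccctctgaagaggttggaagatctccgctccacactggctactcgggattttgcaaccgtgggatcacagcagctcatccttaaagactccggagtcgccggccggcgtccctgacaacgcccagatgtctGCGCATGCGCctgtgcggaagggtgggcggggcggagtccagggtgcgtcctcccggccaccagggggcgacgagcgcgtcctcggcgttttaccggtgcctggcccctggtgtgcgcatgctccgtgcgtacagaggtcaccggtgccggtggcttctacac

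Complex II, succinate dehydrogenase, is the one complex encoded wholly in the nucleus and also a step of the citric acid cycle. Of its 4 genes 3 were above 0 and none was called. Sdha, the flavin subunit that oxidises succinate, had 1.94, 1.20 and 1.37 on the rHuEPO arrays, against 1.37 and 1.31 on the PBS arrays and 1.95 on the untreated array. Both slide 1 arrays were high and the other 4 low, the reverse of most of the set, and the arms differed by -0.04 ± 0.27. A second tested Sdha probe gave an arm difference of 0.09 and the same slide direction. Sdhb, the iron-sulfur subunit, had 3.80, 4.16 and 4.21 on the rHuEPO arrays, against 4.23 and 4.06 on the PBS arrays and 3.48 on the untreated array, a difference of 0.13 ± 0.25. Sdhc and Sdhd anchor the enzyme in the membrane. Sdhc was nearly level over the arrays, with a difference of 0.04 ± 0.16 and a 95% confidence interval of -0.32 to 0.41. Sdhd differed by 0.18 ± 0.26. The Sdhd promoter is shown as one of 4 windows that held 3 of the 6 motifs searched, the most in any window. The others were those of Atp5g3, Atp5k and Atp5l. The Sdhd window lies at chr9:50603800-50604099 on the minus strand of GRCm38.p6. The NRF1, ETS and ERR matches are in capitals in that order, each as the reverse complement of the letters given below.
Sdhd: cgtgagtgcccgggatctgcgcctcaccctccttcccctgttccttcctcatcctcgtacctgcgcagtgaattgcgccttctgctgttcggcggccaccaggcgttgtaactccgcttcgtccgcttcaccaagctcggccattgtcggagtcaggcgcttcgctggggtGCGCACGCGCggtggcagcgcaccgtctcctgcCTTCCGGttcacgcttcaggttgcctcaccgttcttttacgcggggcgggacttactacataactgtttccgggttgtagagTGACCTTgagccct

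Complex III, the cytochrome bc1 complex, had 8 tested genes, all above 0 in the fit of all 6 arrays and 1 above 0 against the PBS arrays alone. Within slide 2, where the arms share a slide, 6 of the 8 were above 0. Uqcrfs1, the Rieske iron-sulfur protein, had 4.05, 4.45 and 4.84 on the rHuEPO arrays, against 4.66 and 4.51 on the PBS arrays and 3.98 on the untreated array. The rHuEPO arrays spanned nearly the whole range of the 6, and the difference was 0.07 ± 0.27. The core proteins Uqcrc1 and Uqcrc2 differed by 0.06 ± 0.24 and 0.04 ± 0.16. Among the small accessory subunits, Uqcr10, Uqcrq and Uqcr11 had the 3 smallest p-values of the complex, with differences of 0.18 ± 0.25, 0.17 ± 0.27 and 0.12 ± 0.22 (limma adjusted p = 1.00 for each). Uqcrb, another accessory subunit, was named after its values were seen because of its spread. It had 0.16, 0.52 and 0.98 on the rHuEPO arrays, against 1.49 and -0.39 on the PBS arrays and 0.23 on the untreated array, so that the PBS arrays were the highest and the lowest of the 6.

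Complex IV, cytochrome c oxidase, has tissue isoforms of several subunits, and 14 of its 18 genes were tested. The median over the 14 was 0.10, 11 were above 0, and none was called. The widely expressed forms Cox4i1, Cox6a1 and Cox8a differed by 0.08 ± 0.21, 0.03 ± 0.22 and 0.05 ± 0.21. Cox5a and Cox5b, which have no such paralog in the set, differed by 0.15 ± 0.30 and 0.10 ± 0.22. Cox6a2, the heart and skeletal muscle form of its subunit, had a difference of -0.00016 ± 0.24 on the log2 scale. Cox7a2, the widely expressed form of another subunit, differed by 0.13 ± 0.36, Cox7b by 0.10 ± 0.30 and Cox7a2l, which joins complexes III and IV into larger assemblies, by -0.21 ± 0.19.

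Cox6b1 and Cox6b2 encode alternative forms of a subunit facing the cytochrome c side, Cox6b2 being known from testis. Cox6b2 had log2 signals of 2.79, 2.37 and 2.89 on the rHuEPO arrays, against 1.67 and 2.08 on the PBS arrays and 2.22 on the untreated array. Every rHuEPO array was above every control array, although rHuEPO 2 cleared the untreated array narrowly. The difference was 0.69 ± 0.23, a 1.62-fold ratio (limma adjusted p = 0.855), and it was 0.56 within slide 1 and 0.76 within slide 2. Cox6b1 had 0.92, 1.57 and 1.53 on the rHuEPO arrays, against 1.54 and 1.32 on the PBS arrays and 0.23 on the untreated array. Its arms overlapped, and the difference was 0.31 ± 0.37 and -0.09 against the PBS arrays alone. Within slide 2 the Cox6b1 difference was 0.12. The promoter of Cox6b2 is shown as that of the second gene with separated arms. At chr7:4753045-4753344, minus strand, GRCm38.p6, the window held none of the 6 motifs, and nothing is in capitals.
Cox6b2: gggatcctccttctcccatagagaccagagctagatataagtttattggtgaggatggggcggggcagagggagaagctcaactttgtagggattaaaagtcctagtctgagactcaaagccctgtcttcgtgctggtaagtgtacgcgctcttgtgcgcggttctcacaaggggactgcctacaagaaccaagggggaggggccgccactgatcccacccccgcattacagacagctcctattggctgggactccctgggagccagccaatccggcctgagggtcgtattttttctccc

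Cox7a1, the muscle form of the subunit also encoded by Cox7a2, went the other way. Cox7a1 had log2 signals of -0.33, -0.23 and -0.08 on the rHuEPO arrays, against 0.21 and 0.25 on the PBS arrays and -0.05 on the untreated array. All 3 rHuEPO arrays were below all 3 control arrays, the closest pair being rHuEPO 3 and the untreated array. The difference was -0.35 ± 0.18 (limma adjusted p = 1.00, and 0.388 with slide as a block), -0.28 within slide 1 and -0.39 within slide 2. Its promoter is shown for comparison with that of Cox6b2, at chr7:30183921-30184220, plus strand, GRCm38.p6, and it also held none of the 6 motifs.
Cox7a1: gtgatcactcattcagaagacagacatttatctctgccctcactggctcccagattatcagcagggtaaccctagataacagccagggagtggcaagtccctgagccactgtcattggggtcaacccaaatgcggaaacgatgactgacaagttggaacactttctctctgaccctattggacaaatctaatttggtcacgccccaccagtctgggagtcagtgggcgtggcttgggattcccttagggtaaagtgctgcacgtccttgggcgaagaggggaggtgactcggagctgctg

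Cox7c, a small structural subunit, was the member most unlike itself from slide to slide. Cox7c had log2 signals of -3.41, -0.82 and -0.53 on the rHuEPO arrays, against -1.13 and -1.34 on the PBS arrays and -3.90 on the untreated array. Its probe was well above background on all 4 arrays of slide 2 and on neither array of slide 1. The difference between arms was 0.54 ± 0.96, and 0.54 ± 0.14 with slide as a block (limma adjusted p = 0.307). Cox4i2, Cox7b2, Cox8b and Cox8c, forms known from lung, testis or muscle, were too dim to test. Of these Cox4i2 was well above background on no rHuEPO array, with readings of -5.67, -5.82 and -5.75. It was so on both PBS arrays, at -3.47 and -2.96, and not on the untreated array, at -6.04. The control arrays spanned the rHuEPO readings, and no fold is given.

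**Figure D2:**
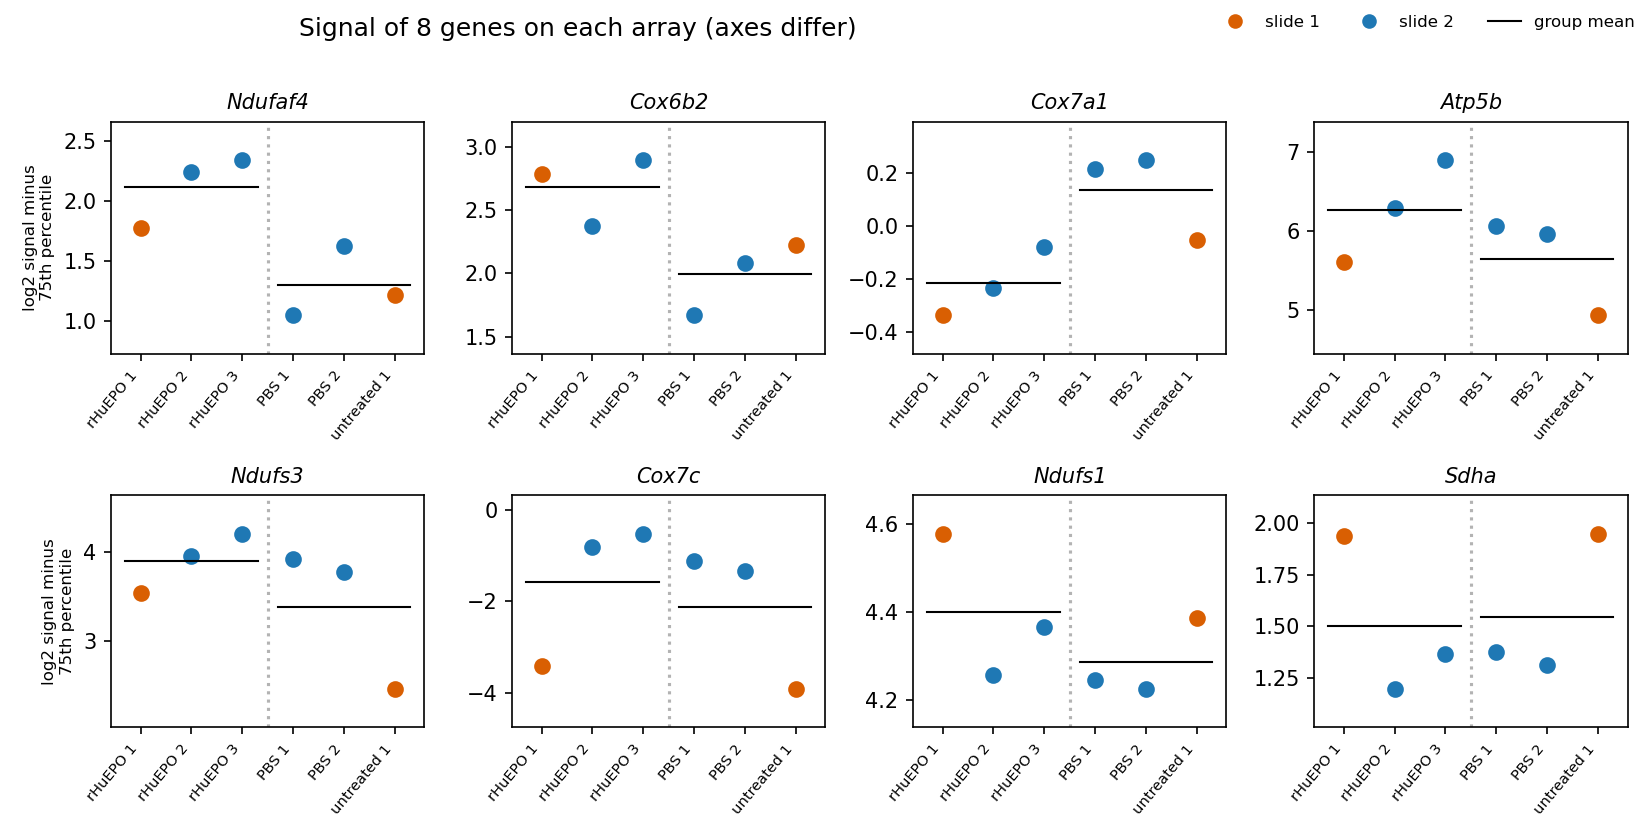
Log2 signal minus the array's 75th percentile for 8 genes on each of the 6 arrays, with the mean of the 3 rHuEPO and of the 3 control arrays as lines and slide as colour; axes differ between panels. Ndufaf4 and Cox6b2 are higher and Cox7a1 lower on all 3 rHuEPO arrays than on all 3 control arrays. Cox7c, Atp5b, Ndufs3, Sdha and, narrowly, Ndufs1 separate by slide.

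Complex V, ATP synthase, had 17 tested genes, all above 0 in the fit of all 6 arrays, 3 against the PBS arrays alone, and none called. Within slide 2, where the arms share a slide, 10 of the 17 were above 0. Atp5b, the catalytic beta subunit, had 5.61, 6.29 and 6.89 on the rHuEPO arrays, against 6.06 and 5.96 on the PBS arrays and 4.94 on the untreated array. The lowest 2 arrays were those of slide 1, and rHuEPO 1 was below both PBS arrays. The difference was 0.61 ± 0.41 (limma adjusted p = 1.00, and 0.341 with slide as a block), while both other tested probes of Atp5b gave 0.19. Atp5a1, the alpha subunit beside it in the catalytic head, differed by 0.08 ± 0.22. The central stalk subunits Atp5c1, Atp5d and Atp5e, which turn inside the head, differed by 0.26 ± 0.31, 0.20 ± 0.20 and 0.09 ± 0.22. Atp5o, of the outer stalk that holds the head still, differed by 0.15 ± 0.29.

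Atp5g1, Atp5g2 and Atp5g3 encode the same mature protein of the membrane rotor ring from different precursors. Atp5g1 had 4.92, 5.28 and 5.51 on the rHuEPO arrays, against 5.14 and 5.01 on the PBS arrays and 4.37 on the untreated array. Its arms overlapped through rHuEPO 1, and the difference was 0.39 ± 0.27 (limma adjusted p = 1.00, and 0.390 with slide as a block). Atp5g2 and Atp5g3 differed by 0.02 ± 0.18 and 0.14 ± 0.26. Whether the 3 genes differed from each other in response was not tested.

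Single arrays spanned a wider range than the difference between arms. Centred on each gene's mean over the 6 arrays, the median log2 signal of the 87 genes was -0.19, 0.09 and 0.30 on the rHuEPO arrays, against 0.24 and 0.02 on the PBS arrays and -0.41 on the untreated array. Each arm thus held a high and a low array. The untreated array was the lowest of the 6 for 73 of the 87 genes. It was lowest for 27.5% of all genes and 58.3% of the 887 bright genes. The highest array was rHuEPO 3 for 46 genes and PBS 1 for 32. Arrays of the same slide and treatment also differed: rHuEPO 3 was above rHuEPO 2 for 80 genes by a median of 0.20, and PBS 1 above PBS 2 for 77 by a median of 0.21. The same pairs differed by medians of 0.05 and 0.03 over all genes. Over the 887 bright genes the centred medians were -0.15, 0.04 and 0.19 on the rHuEPO arrays. They were 0.20 and -0.0018 on the PBS arrays and -0.26 on the untreated array, so bright genes also varied in this way.

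**Figure D3:**
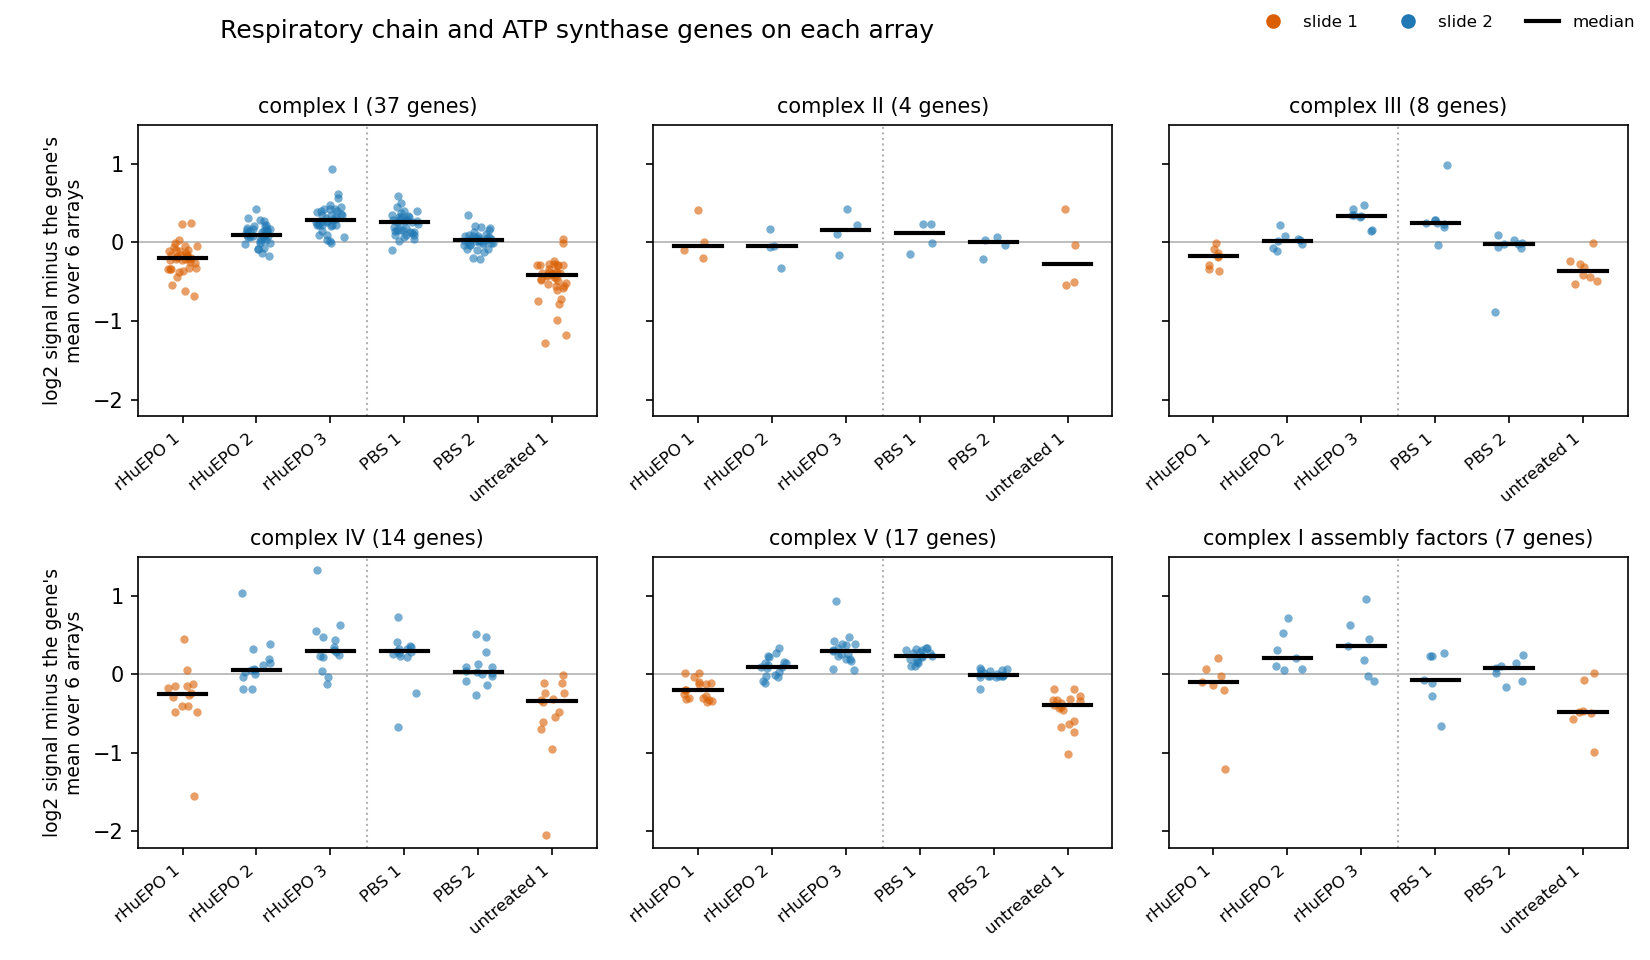
Log2 signal of each gene minus its mean over the 6 arrays, by array and complex, with slide as colour; bars are medians. In complexes I, III, IV and V the untreated array is lowest and rHuEPO 1 the next, both on slide 1, and rHuEPO 3 and PBS 1 are highest.

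Slide was therefore fitted together with arm. In the control arm slide 2 held the PBS arrays and slide 1 the untreated one. The slide differences given here and below therefore take in any effect of the PBS injection. On slide 2, 82 of the 87 genes were higher than on slide 1, against 60.4% of all genes, with a median of 0.45 against 0.11. Limma called 21 of the 87 higher on slide 2, where 7.18% of all genes were called, and 1 lower, where 3.43% were. All 4 arrays of slide 2 were above both of slide 1 for 64 genes (28.2% of all genes, 56.5% of the bright genes). They were below both for 2, Sdha and Ndufs1 (13.6% of all genes). The direction appeared in each arm: rHuEPO 1 was below both other rHuEPO arrays for 73 of 87 genes, against 51.0% of all genes, and the untreated array was below both PBS arrays for 78, against 45.9%. The same direction was seen over the 887 bright genes, which include the brighter of the 87. Their median was 0.31, and 87.5% of them were higher on slide 2.

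Among genes above background on both slides the largest slide differences were those of Ndufab1, Ndufs8, Ndufc1, an accessory subunit of complex I, and Atp5b, a ranking made after the values were seen. Ndufab1 differed by 1.21 ± 0.18, slide 2 minus slide 1 (limma adjusted p = 0.0293), and Ndufs8 by 1.15 ± 0.23 (adjusted p = 0.0393). Ndufc1 differed by 1.10 ± 0.15 (adjusted p = 0.0271). Second tested probes of Ndufab1 and Ndufc1 gave smaller differences of 0.60 and 0.70. Atp5b differed by 1.03 ± 0.20 on its brightest probe (adjusted p = 0.0362), whereas its other tested probes gave 0.14 and 0.13. Only 2 genes were well above background on slide 2 and on neither array of slide 1, so their differences are bounds. Cox7c was at least 6.31-fold higher on slide 2, and Ndufaf5, an assembly factor, at least 1.95-fold (limma adjusted p = 0.0076 and 0.0271 for the readings themselves). Sdha was lower on slide 2, by -0.63 ± 0.13 (adjusted p = 0.0409), and its second probe gave -0.41. The slide block lowered the median residual standard deviation of the 87 genes to 0.15, against 0.30 without it. Over all genes the values were 0.20 against 0.29, and over the 887 bright genes 0.17 against 0.26.

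Within slides the arms could be set side by side without the slide difference. In slide 1, rHuEPO 1 was above the untreated array for 80 of 87 genes, with a median of 0.21. The share was 50.7% of all genes and 75.2% of the 887 bright genes, whose median was 0.11. In slide 2 the mean of 2 rHuEPO arrays was above that of 2 PBS arrays for 60 genes, with a median of 0.06. There the share was 46.9% of all genes and 51.4% of the bright genes, whose median was 0.0054. With 1 array against 1 the slide 1 comparison has no replicate check. Its median of 0.21 was like those between arrays of the same slide and treatment. These were 0.20 for rHuEPO 3 over rHuEPO 2 and 0.21 for PBS 1 over PBS 2. The slide 1 control was the untreated sample, so rHuEPO and the injection itself cannot be told apart there.

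**Figure D4:**
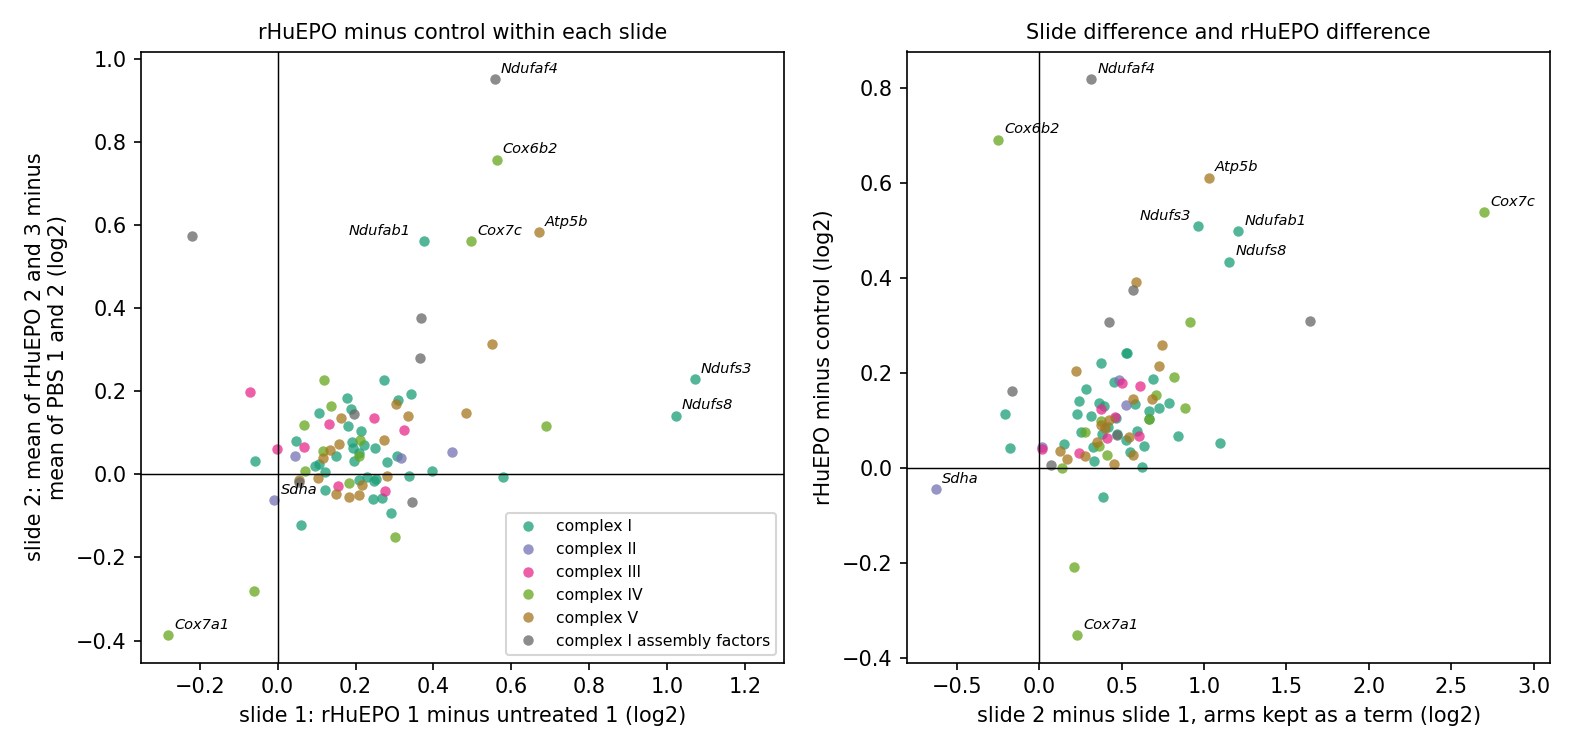
Left, rHuEPO minus control within slide 1 (1 against 1 array) and within slide 2 (2 against 2 arrays) for the 87 genes, on log2 scales; right, the slide difference against the difference between arms in the fit of all 6 arrays. Ndufaf4 and Cox6b2 are positive and Cox7a1 negative within both slides, and 82 of 87 genes lie right of 0 in the right panel.

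Many genes of oxidative phosphorylation are known to carry motifs of NRF1, of ETS factors such as GABP, of YY1 and of the estrogen-related receptors (ERR) in their promoters. RefSeq promoter windows of 300 bases were at hand for 78 of the 96 genes and searched on both strands, and in none of them did matches of different motifs overlap. The NRF1 motif, of 10 letters with 1 of them free, was in 19 windows (24.4% of these genes, against 5.19% of all genes with a window). The ETS motif, CCGGAAG, was also in 19 (24.4% against 9.93%), the YY1 motif, AAGATGGC, in 11 (14.1% against 3.19%) and the ERR motif, AAGGTCA, in 8 (10.3% against 5.38%). At least 1 of these 4 was in 43 of the 78 windows (55.1% against 21.1%). The E-box CACGTG was in 6 (7.69% against 8.09%), and the GATA motif AGATAAG in 0 (3.50% of all genes). A match is a description and not a site or a cause, and no match says only that these letters are not in the window.

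Genes that serve the chain without being part of it also gave no calls. For the counts above 0 in this and the next paragraph, the share was 47.3% of all genes and 62.2% of the 887 bright genes. Of 9 tested genes of mobile carriers and ATP export 7 were above 0, with a median of 0.08. Cytochrome c itself, Cycs, which ferries electrons to complex IV, differed by 0.40 ± 0.31, and the ADP/ATP carrier Slc25a5 by 0.12 ± 0.18. Other assembly genes of complex I were above 0 in 11 of 11 cases, with a median of 0.19. Tmem70 and Tmem186, membrane proteins of that process, had the smallest p-values, with 0.33 ± 0.19 and 0.36 ± 0.22. For complexes II and III 8 of 10 genes were above 0, with a median of 0.10. Uqcc1, an assembly factor of complex III, differed by 0.33 ± 0.18. Cyc1, cytochrome c1, is a subunit of complex III that the symbol rule leaves out, and it differed by 0.25 ± 0.21. For complex IV 18 of 20 assembly genes were above 0, with a median of 0.14. There Coa7, an assembly factor, differed by 0.55 ± 0.25, and Lrpprc, which stabilises mitochondrial messenger RNAs, by 0.24 ± 0.17. For ATP synthase 2 of 4 were above 0, with a median of 0.00098, and its chaperones Atpaf2 and Atpaf1 differed by 0.23 ± 0.18 and -0.15 ± 0.16. Leaving out single arrays gave medians of -0.07 to 0.16 for carriers and ATP export and 0.06 to 0.27 for complex I assembly. They were 0.03 to 0.23 for complexes II and III, -0.05 to 0.25 for complex IV and -0.11 to 0.12 for ATP synthase.

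The smallest unadjusted p among these lists was in coenzyme Q synthesis, where 7 of 10 genes were above 0, with a median of 0.12. Coq8a, a kinase-like gene of that pathway, differed by -0.63 ± 0.22 (limma adjusted p = 0.856), and the methyltransferase Coq5 by 0.38 ± 0.16 (adjusted p = 1.00). Both had separated arms, in opposite directions. In the citric acid cycle 15 of 18 genes were above 0, with a median of 0.11, and Pcx, pyruvate carboxylase, and Idh3a, of isocitrate dehydrogenase, differed by 0.50 ± 0.24 and 0.42 ± 0.21. Of 16 regulators of mitochondrial biogenesis 12 were above 0, with a median of 0.08, and Pprc1 and Ppargc1b, both coactivators, differed by 0.41 ± 0.26 and 0.29 ± 0.21. On slide 2, 8 of the 16 regulators were higher than on slide 1, with a median of -0.01. Without single arrays the medians between arms were 0.0038 to 0.25 for coenzyme Q synthesis and 0.04 to 0.21 for the citric acid cycle. For the regulators they were 0.04 to 0.13. None of the symbols listed for mitochondrially encoded genes matched a probe.

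Markers of marrow cell types also varied between arrays. The mean centred signal of 9 neutrophil genes was -0.30, 0.01 and 0.23 on the rHuEPO arrays, against 0.41 and -0.12 on the PBS arrays and -0.23 on the untreated array, and all 9 were higher on slide 2. Like the chain, the mean of these markers was high on rHuEPO 3 and PBS 1 and low on both slide 1 arrays, although single markers departed from it. Limma called none of the 9 between slides (10.6% of all genes), and 87.5% of the 887 bright genes were higher on slide 2. The part of these markers in the result was not tested. Of 9 erythroid genes 7 were above 0 between arms, with a median of 0.36 and none called, and their means were 0.26, 0.02 and 0.25 on the rHuEPO arrays, against -0.52 and 0.06 on the PBS arrays and -0.07 on the untreated array. B lineage genes ranged widely within the control arm, at 0.16, -0.36 and -0.19 on the rHuEPO arrays, against -1.38 and 1.02 on the PBS arrays and 0.75 on the untreated array. The 5 megakaryocyte genes were lowest on rHuEPO 1, at -1.23, and were all higher on slide 2, and the 5 stroma genes lay between -0.74 and 0.65 on the rHuEPO arrays, against -1.32 and 0.49 on the PBS arrays and 1.12 on the untreated array. Between arms the median was 0.05 for 7 monocyte and macrophage genes and 0.29 for 6 T and NK genes, and 2 of 4 fat genes were too dim. Whether any of these mixtures bears on the chain genes was not tested.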

How the data were processed

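Total RNA was labelled with Cy3, per the labels' protocols. Per the file headers, the deposited files of single arrays come from version 10.7.3.1 of Agilent Feature Extraction and give linear intensity with background already subtracted. The deposited value table holds log2 values; the scaling is not given in the sources at hand. Against the scanner values it matched 75th percentile scaling and centring on each probe's median (slopes of at least 0.9988, median absolute difference of at most 0.0131), so its direction is settled. Its column medians were 0.117, 0.0112 and 0.0868 for rHuEPO, -0.0571 and -0.0978 for PBS and -0.104 for the untreated array.

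From the array files, log2 processed signals were centred on each array's 75th percentile, without 1639 control spots and outlier spots, with spots of 1 probe averaged. No saturation occurred. Testing required a probe to be well above background on at least 3 of 6 arrays (19590 of 41174), and a gene was read by its brightest tested probe. Accessions without versions gave symbols to 64.8% of probes through RefSeq on GRCm38.p6. Of 19 of these genes with over 1 tested probe, 6 had probes differing in sign. The array signals at the 75th percentile were 221 to 264. Spots above background made up 46.2% to 46.6% of gene spots in the rHuEPO arm and 48.6% to 50.5% in the control arm.

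Limma 3.58.1 in R 4.3.3 (lmFit, eBayes) was fitted over all genes tested and checked on simulated data. Slide differences came from the fit with arm and slide. A bound sets the bright slide's mean against, per dim array, the higher of the probe's value and the lowest signal well above background. Same-numbered PBS and rHuEPO arrays deviated with correlations of -0.0714 and -0.160, so numbers were not taken as pairs.

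Named genes were the core subunits, the isoform sets, the 3 with the smallest p per complex and direction, and 2 per other list; 1 gene that this rule picks is counted but not reported here. The genes and lists were chosen with earlier results of these data known. Results were recomputed without each array in turn, with PBS alone as control, with slide or replicate number blocked, with array weights or an intensity trend, from the deposited table, with probes averaged, with other filters, and after median scaling, quantile scaling or normexp (offset 50). Normexp used median signals, since mean signals were not among the columns used here.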

Additional observations from a re-analysis of the deposited data

How the results depend on the processing

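None of the 87 genes was called under any of the 18 distinct alternatives run (PBS as the only control and leaving out the untreated array are the same fit), which left out arrays, changed scaling, background, filter, probe rule or controls, or added a block. Genes called over the whole table, 10 in the fit reported, numbered 1 with normexp, 1 with no filter, 5 with a filter on all 6 arrays, 3 with PBS as the only control, 1 with replicate number as a block, 27 with array weights, 3 on slide 2 alone (added after seeing the data), and 1 to 6 when single arrays were left out. With normexp the median difference was 0.55 for the 87 genes, 0.58 for complex I, 0.51 for complex II, 0.55 for complex III, 0.54 for complex IV and 0.59 for complex V. Leaving out single arrays gave medians of -0.07 to 0.26 for the 87 genes, -0.08 to 0.26 for complex I, -0.0027 to 0.17 for complex II, -0.04 to 0.26 for complex III, -0.11 to 0.28 for complex IV and -0.06 to 0.25 for complex V. The lowest values came without the untreated array, and without rHuEPO 3 the count above 0 was 41 of 87. Quantile scaling gave a median of 0.06 with 71 of 87 above 0, and median scaling 0.18 with 85, where the median of all genes moved to 0.06. With the replicate block, for arrays that share only a number, the median was -0.02, 34 of 87 were above 0 and 0 were called. Over the 46 named genes tested and their alternatives, 94 of 827 values turned sign and the lowest adjusted p by limma was 0.176; Ndufaf4 and Cox6b2 stayed above 0 and Cox7a1 below 0 in each alternative run. Depth does not apply to arrays, and signals not well above background limited Cox7c and Ndufaf5 on slide 1 and left 4 genes untested.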
